A study of Emberiza bruniceps with 4 samples.

Results

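Cadherins, contactins, neurexins and neuroligins are cell-surface proteins by which neurons and glia recognise and hold on to each other, and their transcripts were followed here in the hypothalamus of a migratory songbird. Members were chosen by name: each assembled contig took the name of the collared flycatcher protein with its highest match score (e-value of at most 1e-05), estimated counts were summed over contigs of 1 protein name, and names that contain cadherin or begin with contactin, neurexin or neuroligin were kept. This gave 83 members of 11945 protein names, on 647 contigs. Of these, 78 reached a mean of 1 CPM (counts scaled to a common total of matched counts) and are among the 10556 genes compared. Neuroligin-3 was treated apart, because nearly all of its counts lie on 1 contig of which little matches the protein, so counts of members below are out of 77.

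The birds were red-headed buntings (Emberiza bruniceps), caught in the wild. Hypothalamus was sampled in 4 groups: birds in spring with intact gonads, birds in autumn with intact gonads, birds castrated and sampled in spring, and birds castrated and sampled in autumn. Each group is 1 library, and the labels give neither the number of birds behind a library nor their age or sex. With no replicate, a difference below is a difference between libraries, and although season and gonadal state are crossed, a condition and the single library that represents it cannot be told apart.

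Cadherins bind like to like through calcium-dependent extracellular repeats and hold to the actin skeleton through catenins; the classical cadherins sort cells and shape synapses, and the protocadherins, many of them encoded in gene clusters, give neurons surface identities. Neurexins sit on the presynaptic side and bind neuroligins on the postsynaptic side, which organises the synapse. Contactins are anchored to the membrane by a lipid and work with contactin-associated proteins, relatives of the neurexins, at axons and at the nodes of myelinated fibres. In the hypothalamus of mammals and birds, synapses and glial contacts on neuroendocrine neurons are known to be remodelled with season and sex steroids.

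The 4 libraries held between 16840270 and 26213011 estimated counts, of which 39.1% to 41.7% fell on contigs with a kept match. Values are CPM scaled by TMM factors (a correction for differences in composition between libraries), and a member is called higher or lower when the log2 ratio of 2 libraries, after adding 0.5 CPM, is at least 1 in size. Ranges in brackets are exact 95% intervals for counting error only. Values for the 4 libraries are always given in the order spring intact, autumn intact, spring castrated, autumn castrated. Marker genes of neighbouring tissue moved between intact and castrated libraries and are given with the castration results.

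The members other than neuroligin-3 lay on a median of 5 contigs each, and at most 61 (protocadherin beta-15-like). The most counted contig of a member was covered by its match over a median of 71.2% of its bases and matched at a median identity of 96.2%, with a lowest identity of 42.7%. Near-identical clustered protocadherins share reads and protein matches, and for 14 member contigs names tied for the top score, so their division among names is uncertain. The remaining 5 names stayed under 1 CPM on average and were not compared. Protocadherin Fat 3 had 11, 14, 0 and 0 counts, protocadherin gamma-A2 had 0, 4, 5 and 25, and protocadherin Fat 4-like, protocadherin alpha-3-like and protocadherin alpha-C2-like had at most 9 counts in a library.

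Levels can be compared between genes only per length, as TPM. Summed over contigs of at least 500 bases, and with neuroligin-3 left apart, the highest mean TPM was that of protocadherin gamma-C3-like (149.6 TPM, the libraries from 105.6 to 177.3). Contactin-1, an axonal and glial adhesion molecule, followed at 71.2 TPM (65.3 to 80.7), then contactin-2 at 55.1 (45.4 to 66.8), contactin-associated protein 1 at 47.3 (22.5 to 82.1), cadherin-13 at 42.2 (35.1 to 50.03), the neural cadherin cadherin-2 at 39.7 (31.3 to 45.2) and neurexin-1 at 34.2 (25.0 to 45.1). Protocadherin gamma-C3-like lay above contactin-1, and contactin-1 above contactin-2, in each of the 4 libraries. From contactin-2 down to neurexin-1, neighbours in this order changed places between libraries and their ranges overlap. Short contigs weigh heavily in TPM: with them, contactin-associated protein 1 stood at 134.2 and contactin-2 at 95.9 TPM.

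Neuroligin-3 is a postsynaptic partner of neurexins at excitatory and inhibitory synapses. Its name covered 4 contigs. The abundant contig is 7200 bases long, and its match to neuroligin-3 spans 146 residues, which is 6.1% of the contig, at 99.3% identity. It held 97839, 138102, 240066 and 1621320 counts, or 0.539%, 0.758%, 1.43% and 6.19% of all estimated counts of the 4 libraries. These counts were 2.57-fold higher in the castrated than the intact library in spring (log2 ratio 1.36) and 8.62-fold higher in autumn (log2 ratio 3.11). Another contig, of 8040 bases, was covered over 1.2% only.

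The 2 contigs whose match covers at least 50% (85.3% of 2496 bases and 60.4% of 924 bases) carry the neuroligin-3 protein itself over most of their length. They held 1110, 894, 1257 and 953 counts together, or 152, 121, 180 and 94.6 CPM. Their castrated over intact log2 ratio was 0.24 in spring (0.13 to 0.36) and -0.35 in autumn (-0.49 to -0.22), so the direction in autumn was opposite to that of the abundant contig. What the rest of the 7200-base contig encodes was not tested, and its level is not read as a level of neuroligin-3.

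**Figure D1:**
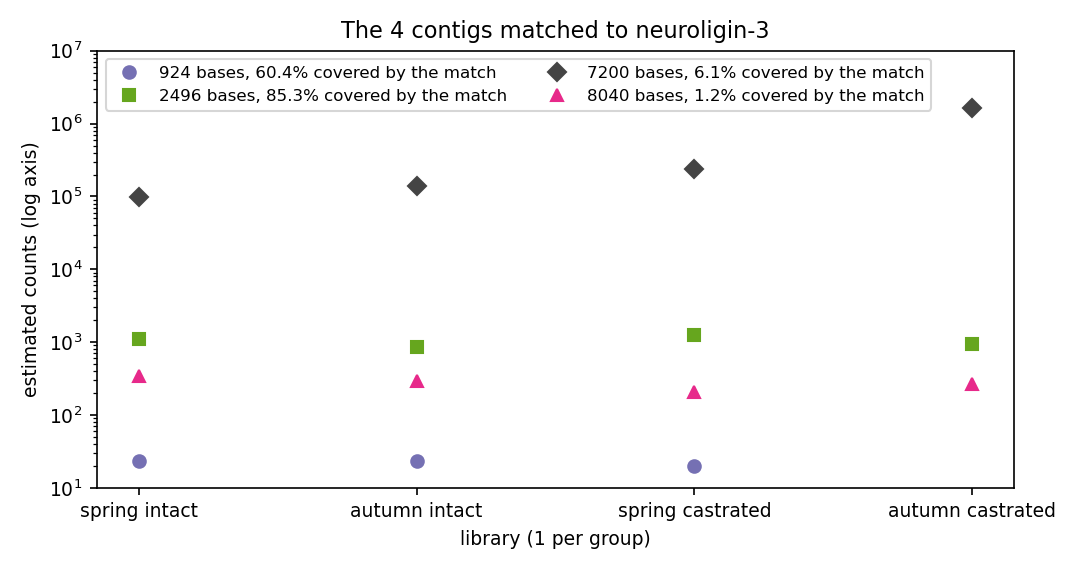
Estimated counts (log axis) of the 4 contigs matched to neuroligin-3 in each of the 4 libraries, 1 point per contig and library. The 7200-base contig, 6.1% covered, runs from 97839 to 1621320 counts, while the 2496-base contig, 85.3% covered, stays between 870 and 1237; the 924-base contig has 0 counts in the autumn castrated library and no point there.

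The castrated libraries differed from the intact ones in the levels of many members, more often downward. In spring 18 of 77 members were at least 2-fold lower in the castrated library (23.4%, against 14.5% of all genes) and 8 were higher (10.4%, against 8.67%). In autumn 17 were lower (22.1%, against 15.2%) and 6 higher (7.79%, against 12.3%). In both seasons 10 were lower (13%, against 9.62%) and 4 higher (5.19%, against 4.54%). The median log2 ratio of the members was -0.38 in spring and -0.51 in autumn, beside 0.01 and -0.01 over all genes. By sign alone, called or not, 45 members lay below 0 in both seasons and 14 above 0 in both, while 4041 and 4051 of all 10556 genes did so.

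Lower in both seasons were neuroligin-1, contactin-associated protein-like 2, contactin-associated protein-like 5, cadherin-9, cadherin-related family member 1, protocadherin Fat 1, protocadherin-8, protocadherin-17, protocadherin-19 and protocadherin-23. Higher in both were contactin-associated protein 1, cadherin-3, cadherin-15 and cadherin-19. The additive edgeR fit (season plus gonadal state), which has 1 residual degree of freedom and takes the interaction as its error, called 22 members lower with castration at an adjusted p under 0.05 (28.6%, against 14.3% of all genes) and 3 higher (3.9%, against 8.12%).

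**Figure D2:**
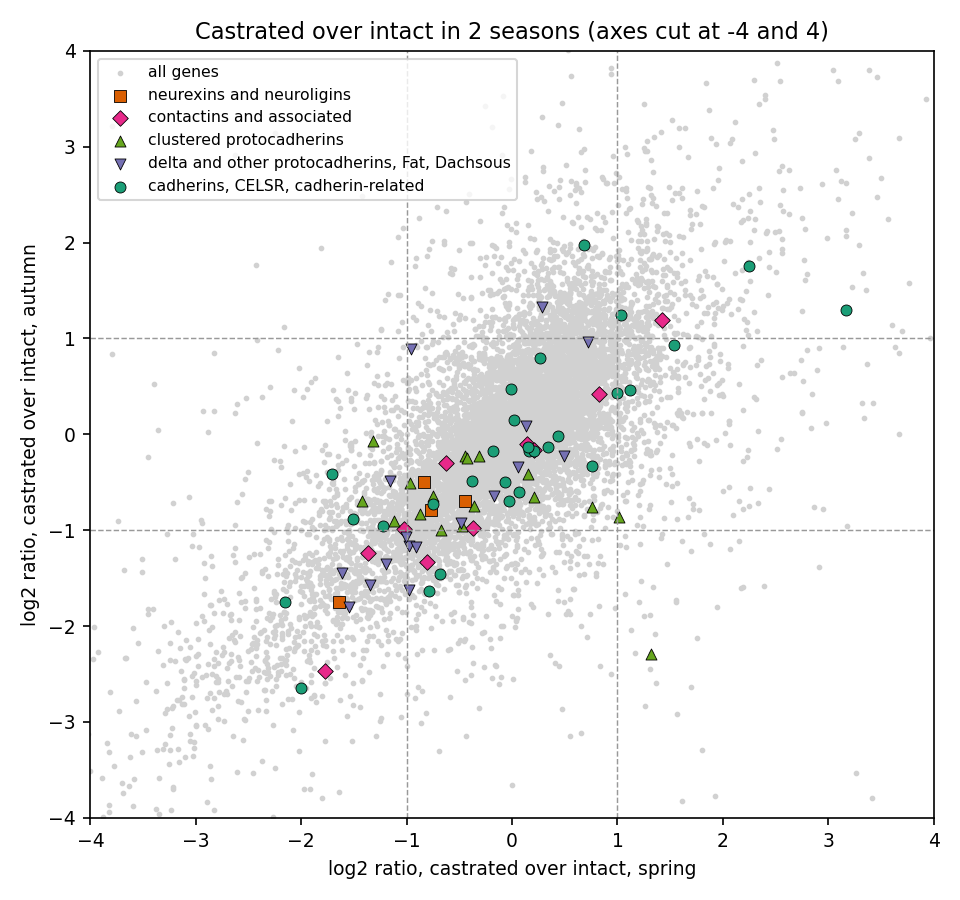
Log2 ratio of castrated over intact in spring (x axis) and autumn (y axis), 1 point per gene: 10556 genes in grey and 77 members coloured by family, dashed lines at -1 and 1. The lower left corner holds the 10 members lower in both seasons and the upper right the 4 higher in both; protocadherin gamma-A10 stands alone at lower right, at 1.32 and -2.29.

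Several marker lists moved with these calls. The summed level of 11 telencephalon markers was 1901 and 2183 CPM in the intact and 425.5 and 444.6 CPM in the castrated libraries. None was at 0, and 8 of 11 were lower and 1 higher in both seasons. The higher one was NEUROD6 (2.77 and 1.81), while ADORA2A (-0.15 and -0.04) and ZBTB18 (0.03 and 0.03) hardly moved. Markers of thalamus, midbrain and hindbrain summed to 374.3, 282.2, 1301 and 1014 CPM, with 5, 3, 0 and 0 of 16 at 0. In both seasons 10 of the 16 were higher and 0 lower. HOXA2 had 0, 1, 404 and 418 counts and HOXA3 had 0, 0, 357 and 319. SLC17A6 held most of the intact sums (240 and 163 CPM). The 10 pituitary markers summed to 8.61, 0.946, 929.8 and 541 CPM, with 4 and 6 of them at 0 in the intact libraries and none in the castrated. Oligodendrocyte markers summed to 9531, 5567, 21010 and 17810 CPM over 6 genes, 4 of them higher in both seasons. Astrocyte and tanycyte markers summed to 1621, 1590, 625 and 665.1 CPM over 3 genes, with medians of -0.48 and -0.58 and 1 gene, the glutamate transporter SLC1A2, lower in both seasons. The part of the tissue taken in the members' ratios was not tested, and in a bulk sample fewer cells of a type and less RNA per cell cannot be told apart. Hypothalamus markers, 11 of 16 matched, summed to 209.7, 227.4, 114.7 and 115.2 CPM; HMX2 was at 0 in both intact libraries. Of the 9 compared, 2 were lower and 0 higher in both seasons, and their medians were 0.22 in spring and -0.78 in autumn. NKX2-1, a regulator of hypothalamic development, went from 22.3 and 17.8 CPM in the intact to 2.29 and 1.29 CPM in the castrated libraries. The feeding peptide NPY, which held most of the intact sums, went from 117 and 141 to 13.3 and 27.2 CPM. In spring 3 were lower and 1 higher (AGRP, 2.26). In autumn 3 were lower and 2 higher (HCRT, 1.11, and CRH, 1.15).

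Transcript length also moved with the ratios. The members' most counted contigs were longer than those of all genes (median 2843 against 2045 bases). Among the longest 25% of genes (3423 to 22836 bases), which hold 32 of the 77 members, the other genes had medians of -0.33 in spring and -0.34 in autumn, and 16.4% of them were lower in both seasons. There 6 of the 32 members were lower in both. Within the same length class the members' medians were -0.48 and -0.60. The part of length in the members' result was not tested.

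Neurexins, the presynaptic side of the pair, were lower in the castrated libraries, by less than 2-fold. Neurexin-1 was at 901, 817, 530 and 472 CPM. Its spring ratio was -0.77 (-0.83 to -0.71) and its autumn ratio -0.79 (-0.84 to -0.73), so both castrated values lay below both intact ones. The 8 contigs of neurexin-1, which match flycatcher isoforms X3, X4, X5 and X7, did not share this change evenly. A 5984-base contig matched to isoform X4 held 2375, 1949, 1003 and 692 counts, or 36%, 32.3%, 27.1% and 14.6% of the name. Another contig matched to X4, of 5957 bases, held 1671, 1452, 893 and 1359 counts, or 25.3%, 24%, 24.1% and 28.6%. A 5972-base contig matched to isoform X5 held 1201, 1489, 1002 and 1435 counts and went from 18.2% to 30.2% of the name between the spring intact and the autumn castrated library. Counts are estimated where contigs share reads, so their division among these contigs is uncertain, and a change between isoforms was not tested. All 8 contigs lay below 0 in the spring pair and 5 of 8 in autumn. Neurexin 3, on 2 contigs, was at 71.0, 78.5, 51.9 and 48.3 CPM, with ratios of -0.45 and -0.69.

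Neuroligin-1, a postsynaptic partner of neurexins found chiefly at excitatory synapses in mammals, was at 223, 179, 71.1 and 53.1 CPM. It was called lower in both seasons, at -1.65 (-1.80 to -1.51) in spring and -1.74 (-1.90 to -1.61) in autumn. It had the smallest adjusted p of the members in edgeR's additive fit (0.00254). Its most counted contig, 3924 bases and matched to isoform X1, went from 824 and 793 counts in the intact to 261 and 138 in the castrated libraries. Its 5 contigs did not all move alike: one matched to isoform X4 had 0, 47, 0 and 97 counts. Neuroligin-4, X-linked was at 245, 168, 137 and 119 CPM, with ratios of -0.83 in spring and -0.50 in autumn, neither called.

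The 6 contactins differed among themselves. Contactin-1 hardly moved, at 2150, 1956, 2377 and 1825 CPM, with a spring ratio of 0.14 (0.11 to 0.18) and an autumn ratio of -0.10 (-0.13 to -0.07). Contactin-2, a marker of myelinated axons and their glia, was at 144, 125, 166 and 112 CPM, and its libraries overlapped. Contactin-3 was at 145, 190, 82.8 and 75.0 CPM and was called lower in autumn (-1.34) but not in spring (-0.81). Contactin-5 was at 185, 158, 90.7 and 79.4 CPM, just past the threshold in spring (-1.02) and just short of it in autumn (-0.98).

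Contactin-4 had 129, 122, 99.8 and 61.6 CPM, with ratios of -0.37 in spring and -0.98 in autumn, so it was also just short of a call. Contactin-6 was alone among the contactins in lying above 0 in both seasons, at 34.7, 41.5, 61.8 and 55.7 CPM and ratios of 0.82 and 0.42, neither called. For contactin-3 to contactin-6 the intact and castrated libraries did not overlap, whereas for contactin-1 and contactin-2 they did. The share of all genes without overlap was not counted. A looser condition, the same sign in both castration pairs, held for 4041 genes below 0 and 4051 above 0 of 10556.

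The 4 contactin-associated proteins split by direction. Contactin-associated protein 1, which flanks the nodes of myelinated axons in a complex with contactin-1, was at 223, 163, 600 and 372 CPM and was higher in both seasons (1.42, 1.34 to 1.51, and 1.19, 1.10 to 1.29), with an adjusted p of 0.00485 in edgeR's fit. All 3 of its contigs moved the same way in each pair. The contig of 263 bases matched at only 45.3% identity, so its counts are not shown to be those of contactin-associated protein 1. The oligodendrocyte markers given above were higher in the same libraries, and their part in this ratio was not tested.

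Contactin-associated protein-like 2, which holds potassium channels beside the node, was at 2219, 1625, 858 and 689 CPM and was lower in both seasons (-1.37 and -1.24). Its counts lay on 2 long contigs. The one of 14940 bases held 8926, 7149, 1472 and 1293 counts, and its share of the name went from 55% and 59.5% in the intact to 24.6% and 18.6% in the castrated libraries. The one of 13345 bases held 7307, 4861, 4524 and 5638 counts. Taken alone, as the contig with the highest mean count, the shorter gave -0.67 and -0.25, so the call rests on the longer contig, of which the match covers 26.7%.

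Contactin-associated protein-like 5 lies on 1 contig and was at 208, 160, 60.6 and 28.4 CPM. It was lower in both seasons, at -1.77 (-1.94 to -1.62) and -2.47 (-2.69 to -2.31), and in the castrated birds it was 1.08 higher in spring than in autumn on the log2 scale. Contactin-associated protein-like 4 was at 78.0, 53.0, 50.5 and 43.0 CPM, with ratios of -0.62 and -0.30.

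**Figure D3:**
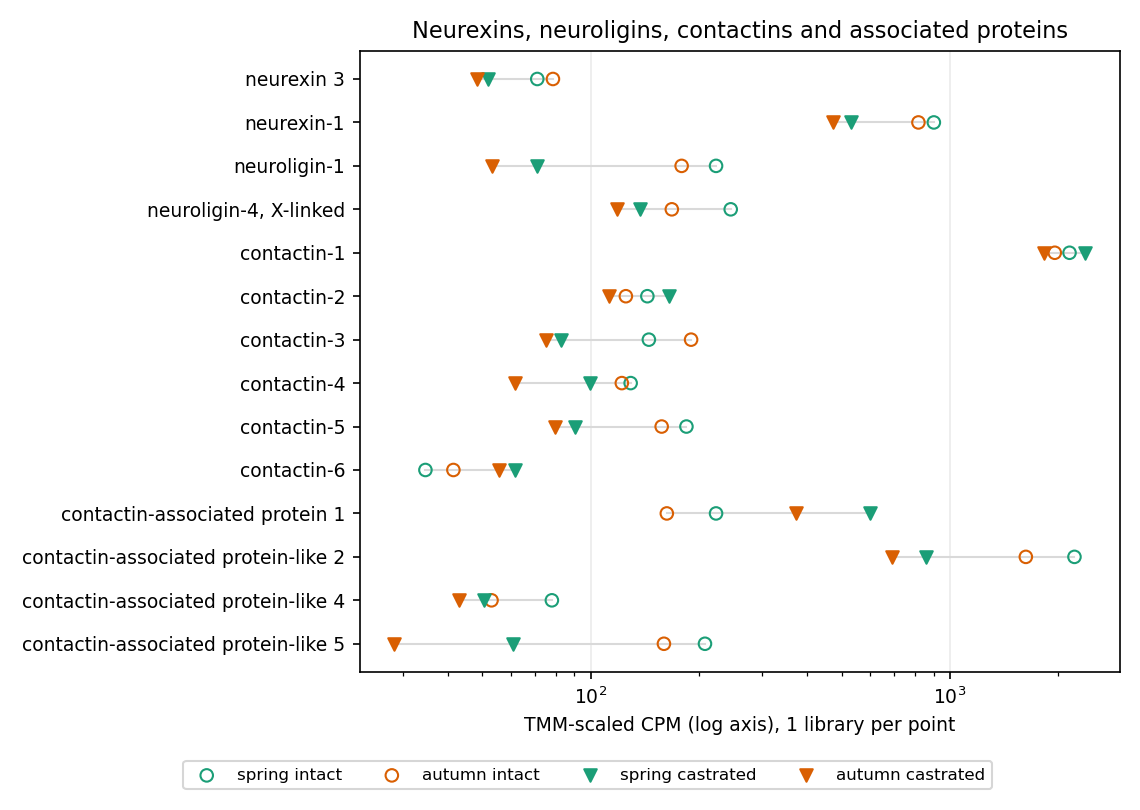
TMM-scaled CPM (log axis) of the 14 neurexins, neuroligins, contactins and contactin-associated proteins without neuroligin-3, 1 point per library (open circles intact, filled triangles castrated, green spring, orange autumn). The castrated points lie left of the intact ones for neuroligin-1 and contactin-associated protein-like 5, and right of them for contactin-associated protein 1 and contactin-6; contactin-1 spans 1825 to 2377 CPM with no gap.

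Among the classical type I cadherins the abundant neural form and the rarer forms differed. Cadherin-2, the main cadherin of neurons and neural progenitors, was at 226, 259, 237 and 171 CPM, with ratios of 0.07 and -0.60. Cadherin-3, a cadherin of epithelia, was at 9.29, 10.3, 46.0 and 35.9 CPM and was higher in both seasons, at 2.25 (1.93 to 2.71) and 1.76 (1.45 to 2.18). Cadherin-1, another epithelial cadherin, was at 3.83, 1.76, 6.43 and 8.34 CPM and was called in autumn alone (1.97). Most of these counts (27.5, 12.5, 33.5 and 73.6) lie on a contig that matched cadherin-1 at 42.7% identity over 18.3% of its length, so the level is not shown to be that of cadherin-1; the better matched contigs, at 90.1% and 90.4% identity, had 0 counts in both intact libraries. Cadherin-15, known from muscle, had 2, 8, 45 and 34 counts. Its ratios were 3.16 (2.62 to 7.65) and 1.29 (0.50 to 2.96), and the autumn call was lost with 2 CPM added (0.80) or with TPM (0.76). The pituitary and oligodendrocyte sums above were also higher in the castrated libraries, and their part in these ratios was not tested.

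The 12 type II cadherins, which differ between nuclei and cell layers of the brain, went both ways. Below 0 lay 6 in spring and 9 in autumn, with medians of -0.18 and -0.33, beside 5211 and 5333 of all 10556 genes. In both seasons 1 of the 12 was called lower and 1 higher, beside 9.62% and 4.54% of all genes. Cadherin-9 had the lowest ratios of the 12: it was at 88.2, 134, 21.6 and 20.9 CPM, with ratios of -2.01 (-2.30 to -1.77) and -2.65 (-2.90 to -2.46) and an adjusted p of 0.00258 in edgeR's fit. Its nearest autumn neighbours were cadherin-10 (211, 242, 122 and 78.0 CPM) and cadherin-6 (82.0, 95.4, 50.8 and 34.5 CPM), called in autumn (-1.63 and -1.45) and not in spring (-0.79 and -0.69). Cadherin-18 was the reverse, called in spring (-1.22) and at -0.95 in autumn. These 3, cadherin-8, cadherin-9 and cadherin-11 were lower in both castrated libraries than in either intact one. The share of all genes for which this held was not counted.

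Cadherin-19, known from glial precursors of peripheral nerve in the rat, was the type II member called higher in both seasons, at 60.4, 39.7, 124 and 94.7 CPM (1.03 and 1.24); with TPM its spring ratio was 0.69. Cadherin-20 was the steadiest of the 12 across libraries, at 247, 243, 250 and 270 CPM. Cadherin-5, the cadherin of endothelial cells, lay at 40.4, 41.5, 54.8 and 41.0 CPM, with ratios of 0.43 and -0.02. The endothelial markers CLDN5, TEK, FLT1 and KDR were at 0.14, 0.54, 0.40 and 0.20 in spring and -0.24, 0.17, -0.38 and -0.11 in autumn. With the meningeal markers COL1A1, COL1A2 and DCN, the list summed to 577.2, 615.6, 542.2 and 509.4 CPM. Cadherin-7 stood at 0.99 and 0.43, cadherin-12 at 0.34 and -0.14, and cadherin-22, at 98.1, 80.6, 113 and 71.6 CPM, at 0.21 and -0.17.

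Of the 4 other cadherins and the 3 seven-pass cadherins that orient cells in a sheet (CELSR), 1 was called in a castration pair. Over all genes, 8.67% were called higher and 14.5% lower in the spring pair, and 12.3% and 15.2% in the autumn pair. Cadherin-13, which lacks an intracellular part, was at 164, 147, 183 and 130 CPM, and cadherin-23, a tip-link protein of hair cells, was at 24.3, 22.4, 27.0 and 20.5 CPM. Cadherin-17 was lower in spring alone (-1.71, on 80 and 21 counts), and neural-cadherin-like, at 32.5, 42.9, 31.9 and 26.3 CPM, had ratios of -0.03 and -0.69. Of the seven-pass receptors, number 2 was the most abundant per length (15.6 TPM) and lay above 0 in both seasons (0.27 and 0.80), number 1 lay at 0.76 and -0.33, and number 3 at -0.18 in each season. Cadherin-related family member 1, known from photoreceptors, had 22, 26, 2 and 7 counts, and ratios of -2.16 (-6.53 to -1.37) and -1.75 (-3.79 to -1.10). Cadherin-related family members 2 and 4 were higher in spring alone (1.54 and 1.12). Cadherin-like and PC-esterase domain-containing protein 1 was lower in spring (-1.51) and at -0.89 in autumn.

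The delta protocadherins, single-gene protocadherins of neurons, were mostly lower in the castrated libraries. Their median was -0.98 in spring and -1.07 in autumn, and 7 of 9 lay below 0 in spring and 8 of 9 in autumn, beside 5211 and 5333 of all 10556 genes. In both seasons 3 of 9 were called lower, beside 9.62% of all genes. Protocadherin-19, a neuronal partner of cadherin-2 whose human gene is known for epilepsy, was at 133, 86.7, 43.0 and 31.5 CPM (-1.62 and -1.45). Protocadherin-8, an activity-induced protein of rat synapses, was at 51.8, 43.7, 17.4 and 12.2 CPM (-1.54 and -1.80). Protocadherin-17 was at 309, 230, 153 and 109 CPM and only just called (-1.01 and -1.07); scaling by library totals put its spring ratio at -0.97. Both intact libraries were above both castrated ones for each of these 3. That order nearly follows from calls in both seasons and adds nothing to them.

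Protocadherin-1 (330, 299.8, 167 and 97.0 CPM) and protocadherin-11 X-linked (76.9, 61.6, 40.8 and 27.0 CPM) were called in autumn (-1.62 and -1.18) and lay at -0.98 and -0.91 in spring. Protocadherin-10 was called in spring (-1.16). Protocadherin-7 was at 179, 183, 128 and 96.1 CPM, with ratios of -0.48 and -0.93. Protocadherin-9 stayed at 119, 113, 124 and 88.8 CPM. Protocadherin-10-like went the other way, at 18.6, 17.03, 30.9 and 33.5 CPM, with ratios of 0.72 and 0.96.

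The giant Fat and Dachsous cadherins bind each other across cell borders and steer tissue growth and polarity. Fat 1 was at 311, 287, 135 and 112 CPM (-1.20 and -1.35), and these calls were lost with TPM (-0.43 and -0.86). Protocadherin-23, a Dachsous cadherin, was at 32.5, 38.9, 12.4 and 12.8 CPM (-1.35 and -1.57); on its most counted contig alone the ratios were -0.14 and -0.31. Protocadherin-16, the other Dachsous cadherin, was at 34.0, 44.6, 47.9 and 38.1 CPM, with ratios of 0.49 and -0.22. Fat 2 had ratios of -0.96 and 0.89 on 19 to 98 counts, and Fat 4 of -0.98 and -1.16 on 8 to 21 counts. Of the protocadherins outside these groups, protocadherin-15 stayed at 73.8, 57.6, 80.9 and 61.04 CPM, protocadherin-20 was at 49.7, 49.3, 44.04 and 31.4 CPM (-0.17 and -0.65), and protocadherin-12 was called higher in autumn on 8 and 35 counts (1.33), a direction that reversed with TPM (-0.47).

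**Figure D4:**
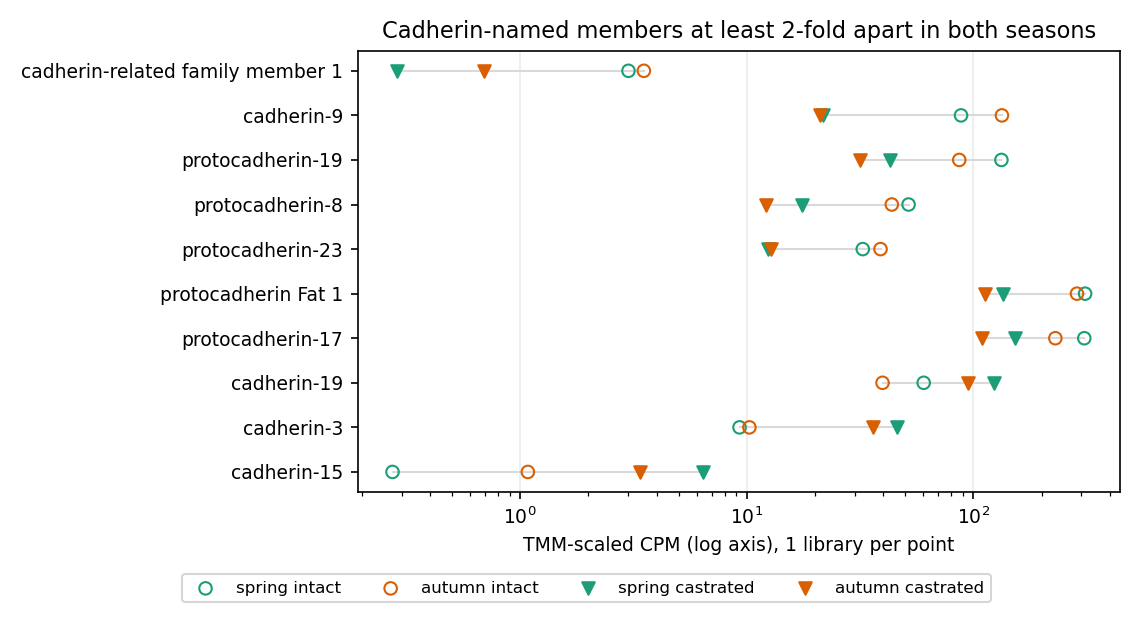
TMM-scaled CPM (log axis) of the 10 cadherin-named members called in the same direction in both castration pairs, 1 point per library (open circles intact, filled triangles castrated, green spring, orange autumn). The upper 7 have both castrated points to the left, as cadherin-9 at 21.6 and 20.9 against 88.2 and 134 CPM, and the lower 3 have them to the right, as cadherin-3 at 46.0 and 35.9 against 9.29 and 10.3 CPM.

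Clustered protocadherins are made from arrays of alternative first exons and are combined differently in single neurons. Of 20 names, 17 were compared. All 17 lay below 0 in the autumn castration pair and 12 in spring, beside 5333 and 5211 of all 10556 genes. Because these names share reads and matches, they are not 17 separate observations. Their medians were -0.69 in autumn and -0.45 in spring, and none was called in the same direction in both seasons. The most abundant, protocadherin gamma-C3-like, was at 534, 559, 617 and 355 CPM (0.21 and -0.66). Protocadherin gamma-C5-like was at 344, 333, 215 and 166 CPM (-0.68 and -0.999, just short of a call). Protocadherin beta-15-like, spread over 61 contigs, was at 124, 93.3, 96.7 and 55.2 CPM (-0.36 and -0.75). Protocadherin beta-16-like was at 13.9, 22.2, 23.9 and 12.9 CPM and pointed up in spring (0.76) and down in autumn (-0.76), neither called. Lower in spring alone were protocadherin gamma-B5-like (-1.42), protocadherin gamma-A2-like (-1.32) and protocadherin beta-4-like (-1.12).

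Protocadherin gamma-A10 was the member called in opposite directions in the 2 seasons. It had 10, 43, 29 and 8 counts, so the castrated library was higher in spring (1.32, 0.52 to 2.80) and lower in autumn (-2.29, -4.17 to -1.77). Its counts came from 4 contigs at 78.2% to 84.3% identity, none with a mean of 20 counts, and different contigs carried them in different libraries.

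Season was accompanied by fewer calls than castration. In intact birds 1 member was at least 2-fold higher in spring (1.3%, against 2.55% of all genes) and 4 were lower (5.19%, against 4.48%). In castrated birds 3 were higher in spring (3.9%, against 2.48%) and 5 lower (6.49%, against 5.41%). In both gonadal states 1 was higher (against 0.237% of all genes) and 1 lower (against 0.635%). EdgeR's additive fit called no member for season at an adjusted p under 0.05, with 10 members at an unadjusted p under 0.05; over all genes it called 0, with 530 at an unadjusted p under 0.05.

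The member higher in spring in both states was protocadherin gamma-B5, with 83, 19, 58 and 21 counts and a ratio of 1.95 (1.41 to 2.94) between intact birds; between castrated birds it was 1.77 (1.25 to 2.79), or 0.90 with TPM. The member lower in spring in both was protocadherin gamma-A12-like, on 6, 25, 2 and 20 counts (-1.56, -3.62 to -0.72, and -1.66, -5.94 to -0.75). In intact birds protocadherin gamma-A10 (-1.76), protocadherin alpha-8-like (-1.06) and cadherin-15 (-1.03) were also lower in spring. Protocadherin alpha-8-like had 9 counts in spring and 23 in autumn (-2.63 to -0.17). Cadherin-15 had 2 and 8 (-5.26 to 0.34), so its interval includes 0. In castrated birds contactin-associated protein-like 5 (1.08) and protocadherin gamma-A10 (1.84) were higher in spring, and protocadherin Fat 2 (-1.67), protocadherin gamma-A2-like (-1.20), protocadherin gamma-A10-like (-1.09) and cadherin-17 (-1.07) were lower. Of these 10 names, 6 are clustered protocadherins, which make up 17 of the 77 members. Some of the 6 rest on few counts, as protocadherin gamma-A12-like does, and an excess over that share was not tested.

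Over all 77 members, called or not, the castrated birds showed a one-sided spread between seasons. The members' median spring over autumn log2 ratio was 0.31 in castrated birds, beside -0.00 over all genes. There 18 of 77 members lay below 0, beside 5293 of all 10556 genes. In intact birds the members' median was 0.08, beside 0.02, and 31 members lay below 0, beside 4887 of all genes. None of the 14 contactins, contactin-associated proteins, neurexins and neuroligins lay below 0 in castrated birds, and 3 did in intact birds. Of the 63 cadherins and protocadherins, 18 lay below 0 in castrated and 28 in intact birds. The autumn castrated library enters both this pair and the autumn castration pair, so these medians share it. Choroid plexus markers summed to 251.9, 7710, 815.6 and 1760 CPM, nearly all of it TTR (238.2, 7630, 804.6 and 1751 CPM). The 3 compared had a median spring over autumn log2 ratio of -2.49 in intact and 0.05 in castrated birds. In castrated birds TTR was at -1.12, KL at 0.22 and CLIC6 at 0.05. The part of these markers in the members' ratios was not tested.

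**Figure D5:**
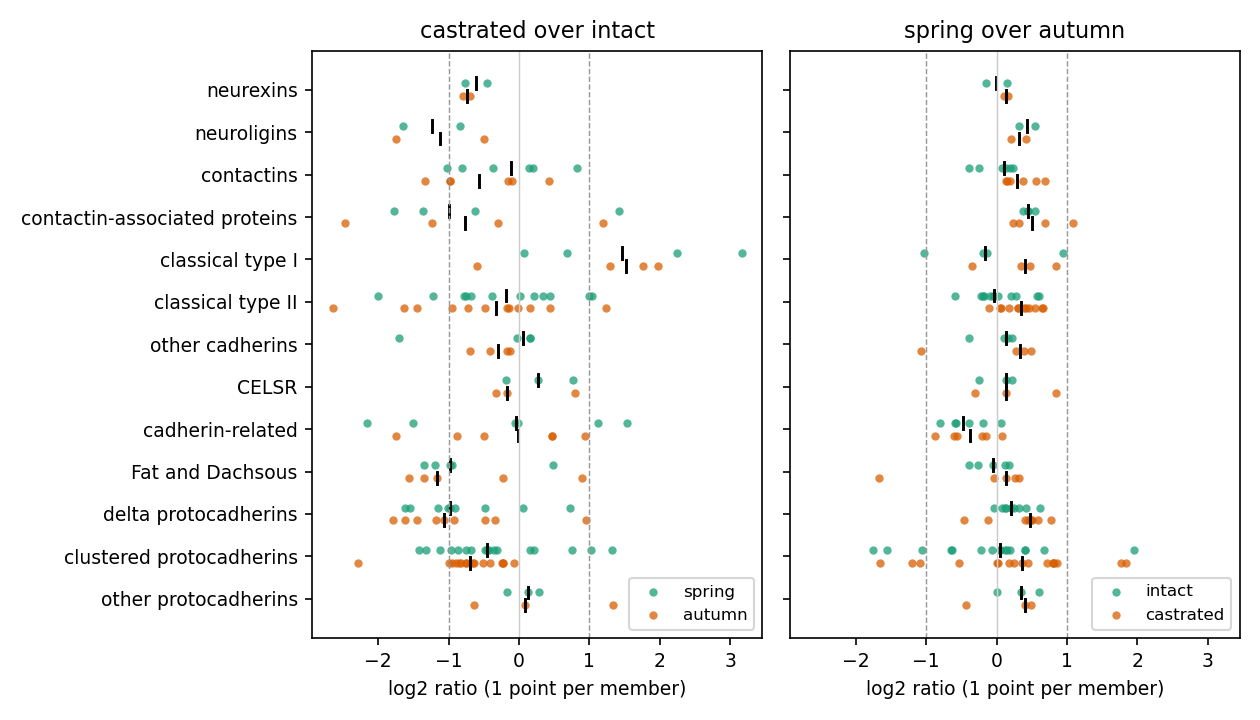
Log2 ratios of the 77 members by subfamily, 1 point per member, with black ticks for medians; left, castrated over intact in spring (green) and autumn (orange), and right, spring over autumn in intact (green) and castrated (orange) birds. Delta protocadherins have medians of -0.98 and -1.07 at left and classical type I cadherins of 1.47 and 1.53, whereas the medians at right lie between -0.48 and 0.50. The type I medians are over 4 members. The abundant cadherin-2 lies at 0.07 and -0.60 and cadherin-3 at 2.25 and 1.76, while cadherin-1 and cadherin-15 rest on few counts.

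Partners of these proteins were taken from lists chosen by function. Of 30 compared partners of neurexins and neuroligins, 10 were lower and 4 higher in both castration pairs, beside 9.62% and 4.54% of all genes. LRRTM2, a postsynaptic neurexin ligand, went from 162 and 163 CPM in the intact to 7.43 and 2.08 CPM in the castrated libraries (-4.36 and -5.99). CLSTN2, a calsyntenin of the postsynaptic side, was at -2.67 and -2.29, and the scaffold proteins DLG2 and SHANK2 were at -2.45 and -2.11 and at -2.18 and -2.1. The 4 that were higher are named here because of their values: CBLN2 (2.22 and 1.09) and CBLN4 (1.13 and 1.38), which link presynaptic neurexins to receptors across the cleft, the complement-like ligand C1QL2 (1.999 and 1.34) and NXPH3, a neurexophilin (1.33 and 2.41). Their relatives in the same list, CBLN1 (-0.03 and 2.01), NXPH1 (0.90 and 0.40), NXPH2 (1.07 and 0.64) and NXPH4 (1.39 and 0.45), were not called in both seasons.

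Of 26 other synaptic adhesion genes 7 were lower and 0 higher in both castration pairs, beside the same shares of all genes; 1 was higher in the spring pair. The largest ratios were those of NCAM2 (-2.82 and -2.42), PTPRD, a presynaptic receptor phosphatase (-3.24 and -1.96), FLRT2 (-2.29 and -2.52) and TENM1, a teneurin (-2.02 and -1.34). Of 14 contactin partners 1 was lower in both, CHL1, a relative of the adhesion molecule L1, at 372, 258, 148 and 87.8 CPM (-1.33 and -1.55). Receptor phosphatase PTPRZ1 was lower in spring (-1.83), and the matrix protein TNR in autumn (-1.20). APP was at -0.10 and 1.85, on 2 to 23 counts. Of 7 cadherin partners none was called in both seasons: VCL, which couples catenins to actin, was at -1.25 and -0.70, CTNNA1 at -0.65 and -0.76, AFDN at -0.76 and -0.56, and CTNND1 at 0.39 and 0.36. The telencephalon and brainstem marker sums given above moved in the same pairs of libraries, and their part in the partners' ratios was not tested.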

How the data were processed

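Per the labels' protocols, hypothalamus was ground in liquid nitrogen, RNA was extracted with Tri reagent and Illumina libraries were made. Trimmomatic and kallisto are named in the submitters' processing notes, without versions; for the assembler and the protein search a tool is not given in the sources used here. The authors deposited estimated counts per contig (fractional where contigs share reads, not normalized), and TPM per contig, which the authors' tool corrects for length. The authors' deposited match list gives an e-value, a bit score and the percent identity of each match to collared flycatcher proteins. Contigs without a value in a library were taken as 0.

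The best match (e-value of at most 1e-05) named 50994 of 507906 contigs. Counts were summed per name and rounded. Names averaging 1 CPM or more of matched counts were kept and scaled by TMM (1.01, 1.04, 1.03 and 0.923 in the order used in the results; edgeR 4.0.16, R 4.3.3). Log2 ratios use CPM plus 0.5. Since each group is 1 library, no test was made: 2-fold was the call, and exact 95% intervals from the binomial split cover counting error only, since reads are not independent molecules. A count of 0 allows up to 3 counts. edgeR's additive quasi-likelihood fit with Benjamini-Hochberg adjustment was an alternative. Ratios, intervals and calls were tested on simulated counts that hold counting error alone. That checks their arithmetic and says nothing on variation between birds or libraries.

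The members and gene lists were chosen with earlier results of these data known. Named are the neurexins, neuroligins, contactins and contactin-associated proteins, the 3 members of each cadherin subfamily highest in TPM, members called in both pairs of a factor or in opposite directions, the 5 per direction and pair with counting bounds farthest from 0, and 4 partners a list with the largest ratios. Other members in the text were chosen after seeing their values. Gene symbols of the lists were paired by hand with protein names, for 151 of 189. The TPM level from contigs of at least 500 bases was added after seeing the data. No sequence table was used.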

Additional observations from a re-analysis of the deposited data

Results flagged for a closer look

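Protocadherin gamma-A10 had castrated over intact log2 ratios of opposite direction in the 2 seasons, 1.32 in spring and -2.29 in autumn. For the same reason its spring over autumn ratios were opposite in the 2 gonadal states, -1.76 in intact and 1.84 in castrated birds. The 4 values come from the same 4 libraries (10, 43, 29 and 8 counts), and that difference itself was not tested.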

How the results depend on the processing

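No paired analysis was possible because the groups share 1 replicate number; edgeR's additive fit keeps season as a term in its castration comparison. Over the ratios of single members under 11 alternatives of scaling, filter, unit and match, 2144 moved by less than their counting interval, 270 by more and 6 reversed. The reversed ones were protocadherin-12 in the autumn castration pair (-0.47 with TPM, -0.32 with matches covering at least 50% of the contig), neuroligin-3 with the latter in the autumn castration pair (-0.39) and in castrated birds between seasons (0.87), and, on the highest contig of each name, cadherin-15 between seasons in intact birds (0.78) and cadherin-related family member 4 in the spring castration pair (-1.16). Of the 10 members lower and 4 higher in both castration pairs, TPM kept 7 and 2 and the highest contig kept 6 and 4; the other 9 alternatives kept 9 or 10 of those they tested lower and 3 or 4 higher. Members lower in both castration pairs numbered 16 on the highest contig; edgeR's fit, which calls a main effect of castration over both seasons and not a 2-fold size in each, called 22 lower. Those higher in castrated birds numbered 4 in spring at a mean of at least 5 CPM and 5 with 2 CPM added, and 12 in autumn on the highest contig. Between seasons in intact birds, 2 were higher with 0.1 CPM added or TPM and 6 on the highest contig; 0 were lower at 5 CPM, 1 with 2 CPM added and 7 with matches covering 50%. In castrated birds between seasons, 5 were higher by library totals or with matches covering 50% and 11 on the highest contig; 3 were lower by library totals, 2 with 2 CPM added and 8 on the highest contig. In both states, 0 were higher with TPM or edgeR; 2 were lower with no filter, with TPM or without neuroligin-3 in the totals, and 0 at 5 CPM, with 2 CPM added, with strict matches, on the highest contig or in edgeR. Library totals moved the median of all genes to -0.18 in the autumn castration pair and 0.16 between seasons in castrated birds. Levels per length without contigs under 500 bases were over 1.5 times lower for 18 of the named members. The causes were not tested. Depth limits members with few counts: protocadherin gamma-A12-like, on 2 and 20 counts in castrated birds, had a seasonal interval from -5.94 to -0.75.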
